A study of Mus musculus with 18 samples.

Results

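Neutrophils were looked for among all deposited single cells of the dorsal dermis, and 145 were found among the 18462 barcodes that passed the limits on genes and mitochondrial RNA (0.785%), out of 23990 barcodes deposited. The members were chosen by their own UMI counts. A UMI is a molecular tag that lets each captured RNA molecule be counted once. A barcode with at least 300 detected genes and under 13% mitochondrial UMIs was taken as a neutrophil where S100a8 and S100a9 had at least 5 UMIs each, Csf3r or Retnlg at least 1, C1qa, a complement gene of macrophages, at most 2, and Pdgfra, a fibroblast receptor, 0. The study compared dorsal skin over the day, with 3 wild-type male C57BL/6J mice at each of ZT2, ZT6, ZT10, ZT14, ZT18 and ZT22, where ZT is zeitgeber time, the hours since lights came on in a cycle of 12 h light and 12 h dark. Each mouse gave 1 library, 18 in all, and no mouse was treated or carried a mutation. The mice were young adults with skin in telogen, the resting phase of the hair cycle. All skin was depilated with a razor and a cream after death, freed of fat and vessels, digested with collagenase and sorted for live cells with a viability dye. The sort took live cells of any type, with no gate for neutrophils.

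Neutrophils are short-lived white blood cells that are made in bone marrow, circulate in blood and enter tissue along gradients of chemokines and other attractants. They carry antimicrobial proteins in granules that are filled at successive stages of maturation, make superoxide with the NADPH oxidase, and release interleukin 1 and chemokines once activated. Healthy resting skin holds few of them, and their release from marrow and entry into tissue are known to vary with the time of day.

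One library stood apart from all others. ZT14 replicate 1 held 94 of the 145 neutrophils (64.8%), whereas the other 17 libraries held 51, with 0 to 8 each and a median of 2. That library had 937 barcodes, of which 724 passed (77.3%), within the range of 60.9% to 91.1% over all libraries, and its median of 11339 UMIs per barcode lay within 6987.5 to 19371. The totals per library were between 4850221 and 40827442 UMIs, of which neutrophils gave 439056 in ZT14 replicate 1 and 192916 in the other libraries together. Of 23824 barcode sequences, 164 occurred in 2 or more libraries, and 89 of these were shared by ZT6 replicate 2 and ZT10 replicate 3. None of those 89 was a neutrophil, and the 1 neutrophil barcode that recurred, from ZT14 replicate 1, had no S100a8 or S100a9 UMI in the other library.

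The limit of 5 UMIs fell in a gap. Of 151 barcodes with 5 UMIs of both S100a8 and S100a9, 2 lacked Csf3r and Retnlg, 1 had over 2 UMIs of C1qa and 3 had a UMI of Pdgfra. Just inside the limits, the lowest member had 10 UMIs of S100a8 and the lowest for S100a9 had 11, with medians of 155 and 184. Just outside, 4 barcodes had 3 or 4 UMIs of the lower of both genes, in ZT2 replicate 1, ZT6 replicate 3, ZT10 replicate 1 and ZT18 replicate 1. The Csf3r or Retnlg clause was met through Csf3r in 142 members and through Retnlg in 81, with both in 78.

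The study kept cells of 850 to 7800 genes, and 134 of the 145 neutrophils lay within these limits while 11 did not. Of the 11, 7 came from ZT14 replicate 1 and 1 each from ZT6 replicate 3, ZT14 replicate 2, ZT22 replicate 1 and ZT22 replicate 3. The share under 850 genes was 7.59% in neutrophils (95% exact binomial interval 3.85% to 13.2%) and 4.08% in other immune cells (3.41% to 4.85%, 125 of 3061). Other immune cells are barcodes with a UMI of Ptprc, the pan-leukocyte marker CD45, and none of Pdgfra. Intervals of this kind cover counting error only.

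Neutrophils held less RNA per barcode than other immune cells, as deposited. Their median was 4258 UMIs and 1089 genes, with a lowest of 1555 UMIs and a highest of 12062, against medians of 11487 UMIs and 2789 genes in other immune cells. Mitochondrial transcripts made up a median of 0.225% of neutrophil UMIs and 3.00% of those of other immune cells. One neutrophil, of ZT22 replicate 1, had 3031 genes and 4.18% mitochondrial UMIs, while the next had 1743 genes, and no doublets were removed.

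The cells carried the markers of their label and few of other cells. Of the 6 neutrophil markers, S100a8 and S100a9 were in all 145 cells, Csf3r and Acod1 in 97.9%, G0s2 in 85.5% and Retnlg in 55.9%, and Ptprc in 96.6%. S100a8, S100a9, Csf3r and Retnlg chose the cells, so their values only describe the choice, and G0s2 and Acod1 were set as markers with earlier results known. The 7 macrophage markers other than C1qa, which the rule limited, summed to 0.870 UMIs per 10000 in neutrophils against 85.2 in other immune cells, led by Csf1r at 0.443, with Ms4a7 and Mertk at 0. The 5 monocyte markers summed to 1.68 against 31.4, led by Ly6c2 at 1.27, with Ccr2 at 0. Ly6c2 itself did not separate the classes, at 2.16 in other immune cells and found in 15.9% of neutrophils and 12.4% of other immune cells. The 6 dendritic cell markers summed to 4.16 against 261, led by H2-Aa at 1.42, with Flt3 at 0. No UMI was seen of any of the 4 NK cell, 4 mast cell, 4 basophil or 5 keratinocyte markers.

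Small amounts of marker transcripts of other cell types were present. The 4 haemoglobin genes summed to 8.42 UMIs per 10000, led by Hbb-bs at 4.34, against 13.2 in other immune cells. The order was the other way in ZT14 replicate 1, with 6.61 against 2.20 in its other immune cells, and elsewhere the sums were 12.5 and 14.3. In the 6 libraries with at least 5 neutrophils the haemoglobin sum was 0.555 in ZT2 replicate 3, 6.58 in ZT10 replicate 1, 6.61 in ZT14 replicate 1, 20.5 in ZT14 replicate 2, 11.4 in ZT22 replicate 2 and 9.14 in ZT22 replicate 3. The 6 fibroblast markers, of which Pdgfra was at 0 by the rule, summed to 4.03, led by Col3a1 at 1.27, against 9.56 in other immune cells. Here too the order was the other way in ZT14 replicate 1 (3.53 against 2.74). Of the 5 eosinophil markers, Siglecf had 14 UMIs and Ccr3 5, and Il5ra, Epx and Prg2 had none. Siglecf was higher in neutrophils (0.222) than in other immune cells (0.00822), as was Ccr3 (0.0791 against 0.0242). T cell markers had 2 UMIs in all, B cell markers 60, all of Ighm, platelet markers 5, endothelial markers 10 and muscle markers 68. The part of these transcripts in the results below was not tested.

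The neutrophil share of immune cells was low in every library but 1. It was 34.8% in ZT14 replicate 1 (94 of 270, 29.1% to 40.8%), and the highest of the other libraries was ZT22 replicate 3 with 7% (7 of 100, 2.86% to 13.9%). By time, the shares were 1.23%, 1.03% and 1.40% at ZT2 for replicates 1, 2 and 3, and 1.88%, 1.43% and 2.17% at ZT6. They were 3.85%, 0.424% and 3.75% at ZT10, and 34.8%, 4.42% and 0% at ZT14. At ZT18 they were 0%, 0% and 0.680%, and at ZT22 0.727%, 2.46% and 7%. The other 2 ZT14 mice thus lay within the range of the rest, and ZT14 replicate 3, with 0 of 267 immune cells, had an exact binomial upper bound of 1.37%. The remaining libraries without a neutrophil, ZT18 replicates 1 and 2, had 31 and 79 immune cells and upper bounds of 11.2% and 4.56%.

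No 24 h rhythm of the neutrophil share was detected across the 18 mice. The mean share was 3.74% ± 7.97 (SD, n = 18), and 1.91% ± 1.90 (SD, n = 17) without ZT14 replicate 1. Mean shares were 1.22% ± 0.182 at ZT2, 1.83% ± 0.375 at ZT6, 2.67% ± 1.95 at ZT10, 13.1% ± 19.0 at ZT14, 0.227% ± 0.393 at ZT18 and 3.397% ± 3.24 at ZT22 (SD, n = 3 each). A cosine of 24 h explained 10.7% of the variance, with a peak at ZT13.7 and p = 0.585 (permutation test of 100000 permutations). Without ZT14 replicate 1, the ZT14 mean was 2.21%, the cosine explained 1.14% and p was 0.932. With a median of 2 neutrophils over the other libraries, a small change with time may have gone undetected. The size of change that the test could detect was not measured.

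**Figure D1:**
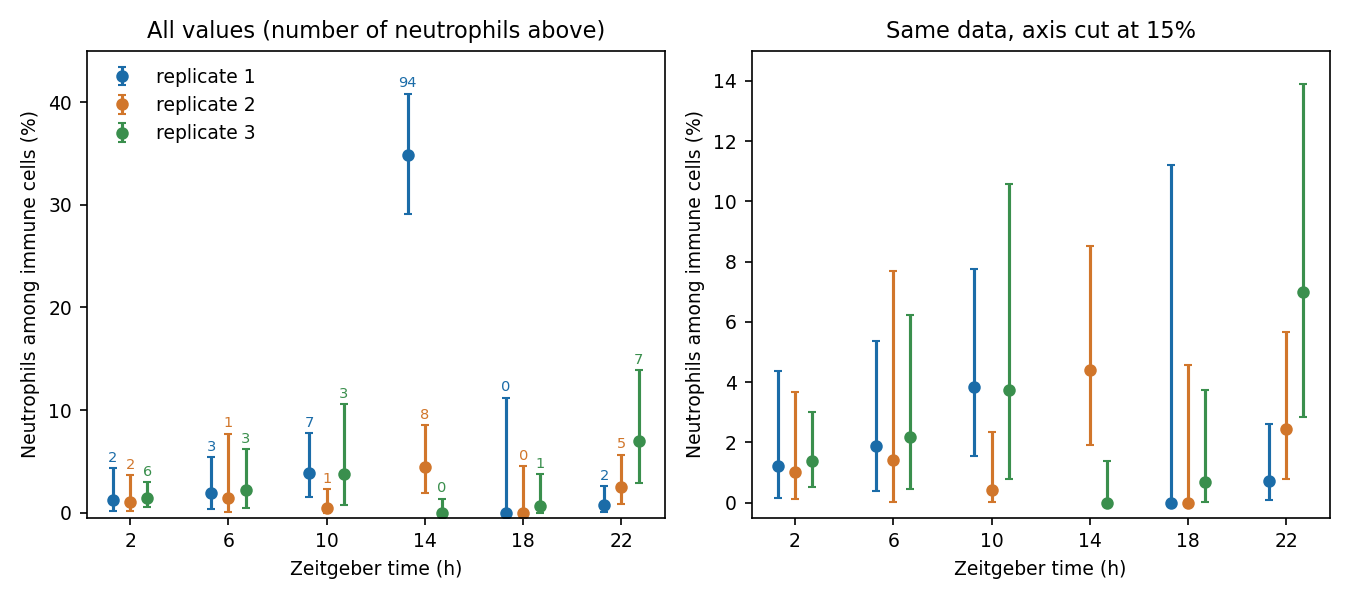
Neutrophils as a percentage of immune cells (y axis) in each of the 18 libraries by zeitgeber time in hours (x axis), on the full scale with the number of neutrophils above each bar (left) and on an axis cut at 15% (right). Points are libraries, colours are replicate numbers and bars are 95% exact binomial intervals. ZT14 replicate 1 stands at 34.8%, and every other library is at or under 7%.

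S100a8 and S100a9, which form the calcium-binding heterodimer calprotectin, dominated the transcriptome of these cells. Together they made up 10.4% of all neutrophil UMIs, and per cell between 0.724% and 33.3%, with a median of 8.89%. S100a8 lies on chromosome 3 (GRCm38 with the GENCODE annotation, 90668978 to 90670035, plus strand) and S100a9 beside it (90692632 to 90695721, minus strand). Their promoters are shown because both genes chose the cells and were high together. Each runs from 250 bases before to 50 after the gene's start as RefSeq lists it (GRCm38.p6, for S100a8 another start than in the GENCODE gene), written 5′ to 3′ on the strand of the gene, and the capitals mark the letters TATAAA, the core of a TATA box.
S100a8 promoter, chr3:90668821-90669120, plus strand: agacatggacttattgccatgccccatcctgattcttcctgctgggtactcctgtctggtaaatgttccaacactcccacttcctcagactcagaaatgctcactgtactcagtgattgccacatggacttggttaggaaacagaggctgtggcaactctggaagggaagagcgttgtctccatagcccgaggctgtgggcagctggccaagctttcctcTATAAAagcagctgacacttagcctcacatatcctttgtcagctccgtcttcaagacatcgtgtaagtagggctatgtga
S100a9 promoter, chr3:90695672-90695971, minus strand: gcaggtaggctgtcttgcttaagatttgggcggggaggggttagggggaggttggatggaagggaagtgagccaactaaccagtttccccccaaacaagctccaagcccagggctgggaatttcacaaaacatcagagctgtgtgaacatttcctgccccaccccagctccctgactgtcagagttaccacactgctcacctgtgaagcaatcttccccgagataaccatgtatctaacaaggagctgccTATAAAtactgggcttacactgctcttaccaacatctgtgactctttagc
The letters TATAAA, read on the strand of the gene, began 30 bases before the listed start of S100a8 and at the listed start of S100a9, and 8.32% of 32851 promoters of this length held them. The C/EBP-type letters TTGCNNAA were searched on both strands, occurred once in the S100a9 window and not in that of S100a8, and were in 10.8% of promoters. The E-box letters CACGTG, searched on both strands, were in neither window and in 7.15% of promoters.

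Levels below are UMIs per 10000 UMIs summed over the cells of a class. The S100a8 level was 379 in ZT2 replicate 3, 482 in ZT10 replicate 1, 474 in ZT14 replicate 1, 468 in ZT14 replicate 2, 180 in ZT22 replicate 2 and 269 in ZT22 replicate 3. In the same libraries the S100a9 level was 532, 581, 652, 528, 214 and 426. Both genes were lowest in the ZT22 libraries, which held 5 and 7 cells. S100a8 had fewer UMIs than S100a9 in 105 of the 145 cells, with a median ratio of 0.769. In other immune cells of ZT14 replicate 1 the S100a8 level was 0.953, but 265 of its 322 UMIs were in 1 barcode that lacked Csf3r and Retnlg. Without the barcode of most S100a8 UMIs in each library, the level was 0.169 in ZT14 replicate 1 and at most 0.0277 in the others. In fibroblasts of that library S100a9 stood at 0.0924, against at most 0.00517 in the other libraries. The part of these traces in the levels of other cells was not tested.

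Against other immune cells, 554 of the 7815 genes compared were at least 4-fold higher in neutrophils (7.09%) and 3244 at least 4-fold lower (41.5%). A gene was compared where at least 10% of the cells of either class had a UMI, and 0.01 was added to both levels. This is the contrast that chose the cells, so it is a description with no test, and a gene that entered through the class where it was high had to differ. The same holds for the gene lists below, where several genes passed through neutrophils alone, Cxcr2, Trem1 and Il1f9 among them. The counts and medians of a list, set beside those of all genes, are thus no result about that list. The median log2 ratio over the compared genes was -1.50. Within ZT14 replicate 1 alone, 6.26% were at least 4-fold higher and 46.9% lower, and without that library 7.11% and 36%.

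The 20 genes of highest ratio were taken among those in at least 25% of neutrophils. After S100a9 (594 against 0.150, log2 ratio 11.86) and S100a8 (444 against 0.119, 11.75) came G0s2, an inhibitor of triglyceride lipase (52.0 against 0.0630, 9.48). Stfa2l1, a stefin-type protease inhibitor, and Lcn2, the siderophore-binding lipocalin of granules, had log2 ratios of 9.39 and 8.99. Retnlg, a resistin-like secreted protein, followed at 8.87, and then Il1f9, the files' symbol for the interleukin 36 gamma gene Il36g, at 8.76. Wfdc21, Cxcr2, Cstdc4, Mirt2, Asprv1, Trem1, Ifitm1, Acod1, 4732465J04Rik, Rdh12, Il1r2, Fpr1 and Gm20406 completed the set, with log2 ratios from 8.74 down to 7.16. All 20 were at least 4-fold higher both within ZT14 replicate 1 and without it. Stfa2l1 and Cstdc4 belong to a family of near-identical copies, so that reads between them may be split and their levels are uncertain.

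The 10 genes of lowest ratio were Ccl8, Ednrb, Folr2, Pltp, Ccr2, Mrc1, F13a1, Pmp22, Fcrls and Clec10a. Ccl8, a monocyte-attracting chemokine, was at 0.0316 in neutrophils and 32.9 in other immune cells, and Mrc1, the mannose receptor, at 0.0316 and 19.6. Ednrb, Ccr2, Pmp22 and Fcrls had no UMI in any neutrophil. A count of 0, taken as at most 3 UMIs of the total, allowed a level of up to 0.0475. All 10 were at least 4-fold lower within ZT14 replicate 1 and without it.

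The 10 most abundant genes of neutrophils held 25.1% of their UMIs. After S100a9 and S100a8 these were Fth1, the ferritin heavy chain (353), Malat1, a nuclear RNA (244.9), and Gm42418, which overlaps ribosomal RNA sequence (172). Srgn, the granule proteoglycan serglycin (156), Cxcl2 (156), Thbs1, thrombospondin 1 (145), Tmsb4x (125) and Il1b (119) followed. Thbs1 was at 2.95 and Srgn at 8.20 in other immune cells, whereas Tmsb4x, an actin-binding peptide, was at 144 there. For Thbs1 the gap depended on the library, with 149 against 18.7 within ZT14 replicate 1 and 136 against 1.45 elsewhere. The order for Tmsb4x turned with the library: it was lower in neutrophils within ZT14 replicate 1 (91.1 against 127.5) and higher elsewhere (201 against 145).

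**Figure D2:**
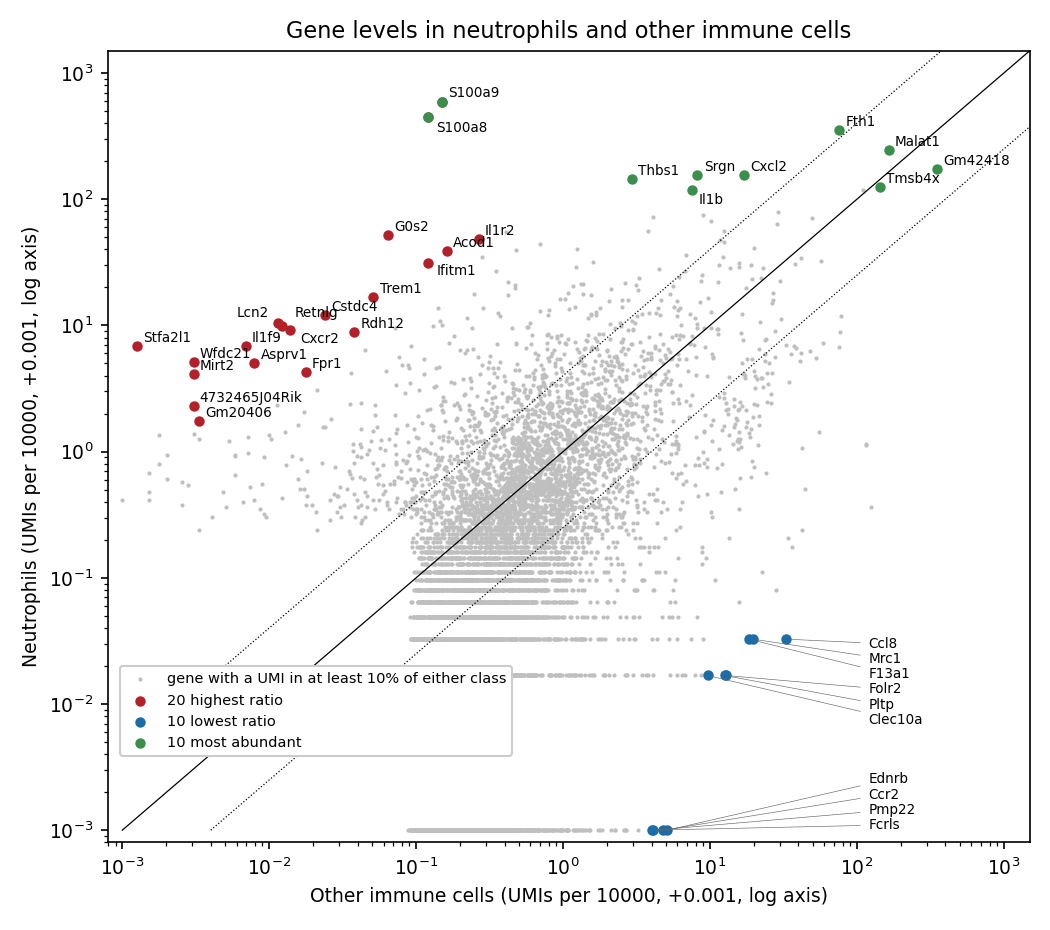
Level of each compared gene in other immune cells (x axis) and in neutrophils (y axis), both in UMIs per 10000 with 0.001 added, on log axes. Red marks the 20 genes of highest ratio, blue the 10 of lowest, green the 10 most abundant in neutrophils (S100a8 and S100a9 are in both red and green sets and drawn green), the solid line equal levels and the dotted lines a 4-fold difference. S100a9 at 594 against 0.150 and S100a8 at 444 against 0.119 are the most abundant in neutrophils and far above the line of equal levels.

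Genes of the granules that are filled first in marrow were nearly absent, and several of those filled later were present. None of the 5 primary granule genes passed the limit of 10% of cells, with 3 UMIs in all (Mpo 1, Prtn3 2) and none of Elane, Ctsg or Ms4a3. Of 7 secondary granule genes, Lcn2 and Lyz2 passed. Lcn2 was at 2.22, 2.19, 13.4, 4.27, 3.61 and 5.81 in the 6 libraries in the order given above, highest in ZT14 replicate 1. Lyz2, lysozyme, was lower in neutrophils (6.77 against 75.2). Ltf, Camp and Ngp, made at an earlier stage, had 10, 27 and 1 UMIs, all in ZT14 replicate 1. Of 7 tertiary granule and vesicle genes, 6 passed and 4 were at least 4-fold higher, with none lower, beside 7.09% higher and 41.5% lower over all genes: Mmp8 (collagenase), Fpr1, Mcemp1 and Stfa2l1. The number was 4 both within ZT14 replicate 1 and without it, but not of the same genes. Within that library Mmp8 was at 0.911 against 0.352, less than 4-fold apart, and Mmp9 (gelatinase) at 4.10 against 0.258, while over all libraries Mmp9 was at 4.21 against 1.39. Alpl had no UMI. The median log2 ratio of the 6 was 5.33, beside -1.50 over all genes. The 4 genes called over all libraries passed through neutrophils alone, so the limit of 10% of cells largely set these values.

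Of 9 genes of attractant receptors, 8 passed and 5 were at least 4-fold higher, with none lower and a median log2 ratio of 3.08, beside 7.09% higher, 41.5% lower and a median of -1.50 over all genes, and without ZT14 replicate 1 the number was 4. Cxcr2, the receptor of the chemokines Cxcl1, Cxcl2 and Cxcl5, was at 14.4, 10.97, 9.73, 4.84, 9.02 and 9.97 in the 6 libraries. It was found in 82.1% of neutrophils, and after thinning every cell to 1500 UMIs in 61.4% of neutrophils, 0.336% of other immune cells and 0.164% of fibroblasts, whose median depths before thinning were 4258, 11487 and 22058.5 UMIs. Ccr1 was at 24.4, 18.6, 21.8, 29.0, 25.3 and 14.9, without a library apart from the rest. The formyl peptide receptors Fpr1 and Fpr2 and the leukotriene receptor Ltb4r1 were the other members at least 4-fold higher. Ltb4r1 was the call that ended without ZT14 replicate 1, which held 90 of its 97 UMIs, and its level elsewhere was 0.363 against 0.342. C5ar1 (10.4 against 3.08) and the platelet-activating factor receptor Ptafr (12.5 against 3.86) were less than 4-fold apart, as was Cxcr4 (5.44 against 3.95), the receptor that holds neutrophils in marrow. Cxcr4 was at 3.96 in ZT14 replicate 1 and between 6.01 and 9.97 in the other libraries with at least 5 neutrophils.

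Among adhesion genes, Cd44, a receptor of hyaluronan, was at 19.0 in neutrophils and 3.24 in other immune cells, and the integrin chain Itgal at 2.17 and 0.320. Cd44 was at 18.3, 26.7, 16.7, 29.3, 33.7 and 25.3 in the 6 libraries, lowest in ZT14 replicate 1, and both genes were less than 4-fold higher within that library. The integrin chains Itgam (4.27 against 3.87) and Itgb2 (3.67 against 1.99) were less than 4-fold apart. In monocytes Cd44 was at 6.17. Monocytes here are the 217 other immune cells with a UMI of Ly6c2 and of Ccr2 and at most 2 of C1qa.

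Of the 4 genes of the S100 and resistin list that did not choose the cells, 2 were at least 4-fold higher and 1 lower, beside 7.09% and 41.5% of all genes, with a median log2 ratio of 2.69. The calcium-binding S100a11 was at 56.0 against 3.77, the resistin gene Retn at 0.902 against 0.00822, and S100a6 at 34.6 against 12.2. S100a4 was at 0.142 against 9.32, lower both within ZT14 replicate 1 and without it.

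Of the NADPH oxidase genes, Cybb, the catalytic subunit, was at least 4-fold lower in neutrophils (0.949 against 5.46). Cybb was at 0, 0.366, 0.843, 0.285, 0 and 0 in the 6 libraries, on few cells in each but ZT14 replicate 1. In the 18 neutrophils of the 9 libraries with 1 to 3 of them it was at 2.93. That is less than 4-fold below other immune cells, so the low level did not hold in all libraries. Its partner Cyba was at 6.99 against 7.81.

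Pattern and Fc receptors, which sense microbes and antibody, passed in all cases, with 6 of 10 at least 4-fold higher and 1 lower, beside 7.09% and 41.5% of all genes, and a median log2 ratio of 3.395. Within ZT14 replicate 1 the number higher was 5, and without it 6. Trem1, which amplifies inflammatory signalling, was at 16.8 against 0.0501, and its relative Trem3 at 2.36 against 0.0103. The C-type lectins Clec4d (39.4 against 0.480) and Clec4e (29.1 against 1.23) and Cd14, the lipopolysaccharide co-receptor (72.6 against 4.08), were also higher. Cd14 was at 27.2, 49.0, 87.8, 55.8, 35.5 and 38.2 in the 6 libraries. Fcgr2b, the inhibitory Fc receptor, was at 0.0475 against 5.50.

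Il1b, an inflammatory cytokine, was the most abundant of the interleukin 1 family genes. Of 7, 6 passed, and Il1b, Il1rn, Il1r2, Il1rap and Il1f9 were at least 4-fold higher, both within and without ZT14 replicate 1, with none lower, beside 7.09% and 41.5% of all genes, and a median log2 ratio of 4.76. Il1b was at 54.3, 99.4, 137, 121, 64.9 and 59.0 in the 6 libraries, against 7.55 in other immune cells and 26.7 in monocytes. The decoy receptor Il1r2 was steadier, at 53.8, 54.5, 48.2, 57.5, 67.3 and 59.8. Il1rn, the receptor antagonist, was at 11.1, 11.3, 23.8, 28.8, 6.61 and 22.4. Il1f9 was at 8.81 in ZT14 replicate 1 and 7.47 in ZT22 replicate 3 but at most 3.01 in the other 4 libraries. Il1a was at 0.380, too rare to pass.

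Several cytokines and chemokines were highest in ZT14 replicate 1. Of 11 genes, 10 passed, and Cxcl2, Cxcl3, Il15 and Vegfa were at least 4-fold higher than in other immune cells and none lower, beside 7.09% and 41.5% of all genes, with a median log2 ratio of 1.87. Within ZT14 replicate 1, 3 were higher and 1, Ccl6, lower, and without it 4 were higher and 1, Cxcl10, lower. Cxcl2, a neutrophil attractant, was at 46.6, 76.0, 194, 161, 49.9 and 71.0 in the 6 libraries, high in both ZT14 libraries with neutrophils. Ccl4 was at 4.44, 6.58, 30.2, 2.85, 0 and 1.25, and Ccl3 at 6.65, 2.56, 16.4, 1.99, 3.01 and 7.06, both highest in ZT14 replicate 1. Over all libraries Ccl4 was at 21.9 in neutrophils and 23.1 in monocytes, and Ccl3 at 12.3 and 8.20. Cxcl10, an interferon-induced chemokine, was seen in 15 cells of ZT14 replicate 1 and in no other neutrophil. In those others a count of 0, taken as at most 3 UMIs, allowed a level of up to 0.156. Ccl6 went the other way, at 10.0 in ZT14 replicate 1 and 26.3 elsewhere. Il10 had no UMI.

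Among the 7 growth factor signalling genes other than Csf3r, which chose the cells, Csf2rb and Csf1 were at least 4-fold higher and none lower, beside 7.09% and 41.5% of all genes, with a median log2 ratio of 1.57. Both were so within ZT14 replicate 1 and without it. Csf3r, the receptor of granulocyte colony-stimulating factor, was at 14.97, 16.1, 13.2, 14.2, 10.2 and 13.7. This was the narrowest range among S100a8, S100a9, Csf3r and Retnlg. The kinase gene Pim1, an induced target of this receptor, was at 27.0 against 6.76.

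Of 11 genes of itaconate, hypoxia and glycolysis, 10 passed and 6 were at least 4-fold higher: Acod1, G0s2, Hif1a, Hilpda, Slc2a1 and Slc2a3. None was lower, beside 7.09% higher and 41.5% lower over all genes, and the median log2 ratio was 2.34. Within ZT14 replicate 1 the number higher was 4, and without it 6 were higher and 1, Hk2, lower. Acod1, which makes the antimicrobial metabolite itaconate, was at 31.6, 15.7, 46.7, 24.5, 16.8 and 31.6. G0s2 was at 58.2, 50.1, 57.6, 80.6, 22.8 and 16.6. Acod1 was highest in ZT14 replicate 1, whereas G0s2 was highest in ZT14 replicate 2 and lowest in both ZT22 libraries. The glucose transporters Slc2a1 and Slc2a3 were at 1.91 against 0.103 and 5.46 against 0.112, while the enzyme Hk2 was at 0.253 against 0.876.

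All 7 genes of the survival list passed, and Bcl2a1a, Bcl2a1b and Bcl2l11 were at least 4-fold higher, beside 7.09% of all genes. Without ZT14 replicate 1, 1 of the 7 was so, Bcl2l11, which promotes cell death rather than survival. The Bcl2a1 genes are near-identical copies, so that their separate levels are uncertain. Mcl1, on which neutrophil survival depends, was at 22.5 against 8.68. Of 7 NF-kB feedback genes, Nfkbia, Ier3 and Tnfaip2 were at least 4-fold higher, against the same 7.09%, with 1, Tnfaip2, so without ZT14 replicate 1. Nfkbia was at 3.88, 10.2, 44.6, 35.9, 15.03 and 20.8, highest in both ZT14 libraries. Of 9 transcription factors 7 passed, with a median log2 ratio of 0.33. Cebpb was at least 4-fold higher (67.4 against 10.1) and Cebpa lower (0.0633 against 0.948), and Cebpe and Gfi1, which act in marrow precursors, had 1 UMI each. Of 5 cell cycle genes, Mki67, Top2a, Cdk1 and Ccnb1 had no UMI in any neutrophil, and Pcna was at 0.570 against 1.29. Padi4, which modifies histones in the release of chromatin traps, had 29 UMIs, 10 in ZT14 replicate 1, and was the 1 of 3 trap genes to pass.

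Among genes known to change as neutrophils age in blood, Cxcr4 was at 6.10, 9.51, 3.96, 9.97, 6.01 and 8.30 in the 6 libraries, lowest in ZT14 replicate 1. The adhesion molecule Icam1 was at 1.79 in neutrophils against 0.978 in other immune cells, but at 0.985 against 1.01 without ZT14 replicate 1. Cd47, which restrains engulfment by macrophages, was at 2.06 against 3.68. These levels rested on 5 to 8 cells in each library other than ZT14 replicate 1, and no test of time was made on them.

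**Figure D3:**
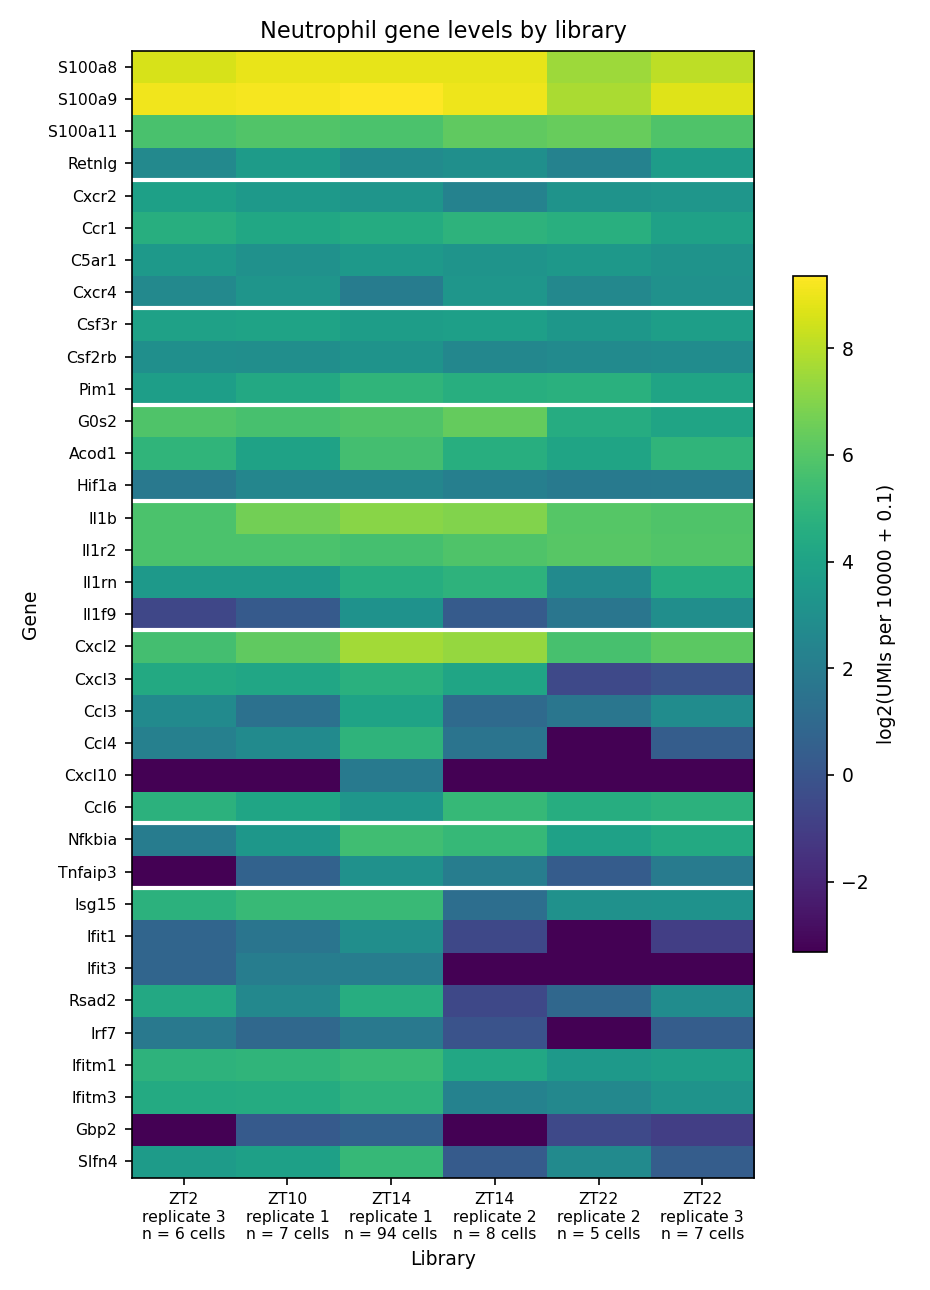
Level of 35 listed genes (rows, grouped by role with white lines between groups) in the neutrophils of each of the 6 libraries with at least 5 of them (columns, with the number of cells), as log2 of UMIs per 10000 plus 0.1 (colour). S100a8 and S100a9 are highest throughout, Csf3r and Il1r2 vary little, and Ccl4 and Slfn4 are highest in ZT14 replicate 1 at 30.2 and 36.0 UMIs per 10000.

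The neutrophils of ZT14 replicate 1 were then set beside the 51 of the other libraries. Over 1478 genes with at least 50 UMIs, and with 0.1 added to both levels, 125 were at least 2-fold higher there (8.46%) and 142 at least 2-fold lower (9.61%), with a median log2 difference of -0.17. This compares 1 mouse with the rest, so it has no test. Values of the other immune cells of the same libraries stand beside the groups below.

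Interferon-response genes were higher as a group in ZT14 replicate 1. At least 2-fold above the other neutrophils were 9 of 9, beside 8.46% of the 1478 genes. Their summed level was 181 in that library (95% Poisson interval 177 to 185, counting error only), 117 in ZT2 replicate 3 (102 to 134) and 121 in ZT10 replicate 1 (108 to 135). It was 29.3 in ZT14 replicate 2 (23.9 to 35.6), 34.9 in ZT22 replicate 2 (26.5 to 45.1) and 41.5 in ZT22 replicate 3 (33.8 to 50.5). The 18 neutrophils of the 9 libraries with 1 to 3 cells gave 51.3 (46.2 to 56.8). High sums were thus not confined to ZT14 replicate 1, and ZT14 replicate 2 had the lowest sum of the 6. In ZT2 replicate 3, however, 1 of the 6 cells held 126 of the 211 UMIs. That cell also had the fewest S100a8 UMIs of the members, 10. The median per cell was 140 in ZT14 replicate 1, 59.1 in ZT10 replicate 1 and 50.3 in ZT2 replicate 3. It was 31.6 in ZT14 replicate 2, 22.6 in ZT22 replicate 2 and 38.3 in ZT22 replicate 3. In other immune cells the sum was 46.1 in ZT14 replicate 1, 45.8 in ZT2 replicate 3 and 25.1 in ZT10 replicate 1, against 21.1 in ZT14 replicate 2.

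Against other immune cells, 6 of the 9 genes were at least 4-fold higher in neutrophils, beside 7.09% of all genes, and the median log2 ratio was 2.77. The number was 4 within ZT14 replicate 1, beside 6.26%, and 4 without it, beside 7.11%. Isg15, a ubiquitin-like modifier, was at 28.3, 37.3, 39.0, 2.28, 8.42 and 8.72, and the antiviral enzyme Rsad2 at 19.96, 5.85, 23.8, 0.570, 1.80 and 7.06. Slfn4, a myeloid gene of the schlafen family, was at 12.2, 14.6, 36.0, 1.14, 6.61 and 1.25. All were highest in ZT14 replicate 1 and lowest in ZT14 replicate 2. Per cell, the summed level of the 9 genes ranged from 10.4 to 789 in ZT14 replicate 1, with a median of 140, and from 2.58 to 434 in the other neutrophils, with a median of 36.7. Cells of low and high level occurred together in the same library, and each of the 145 cells had at least 1 UMI of the list.

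**Figure D4:**
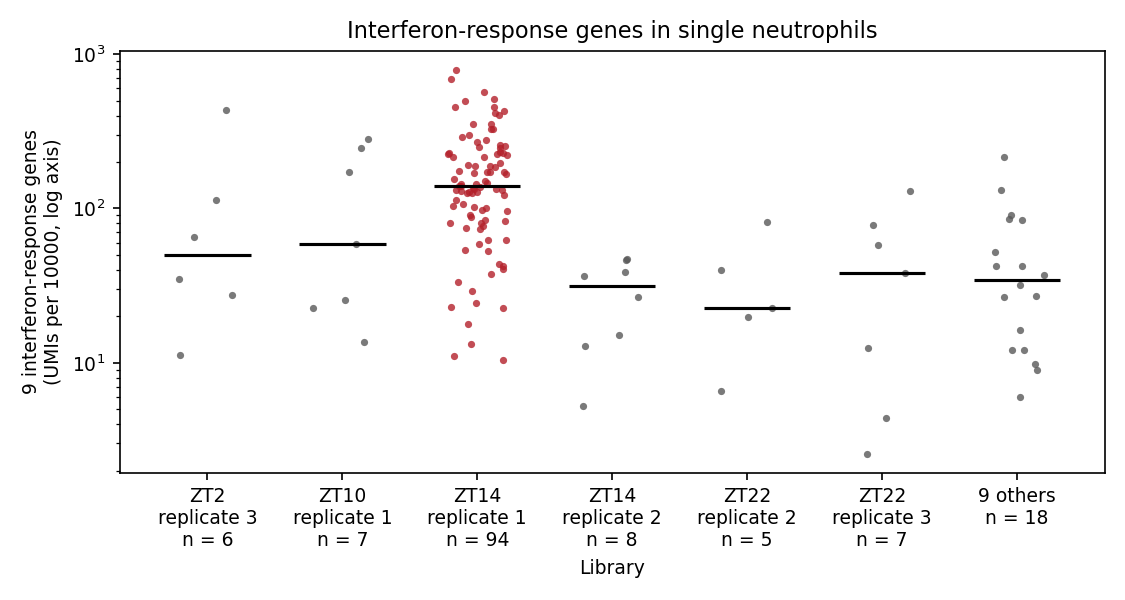
Summed level of 9 interferon-response genes in each neutrophil (y axis, UMIs per 10000, log axis) by library (x axis, with the number of cells), for the 6 libraries with at least 5 neutrophils and the 9 others with 1 to 3 cells each. Points are cells and bars are medians over cells. The median is 140 in ZT14 replicate 1 and 31.6 in ZT14 replicate 2. Cells above 100 UMIs per 10000 also occur in ZT2 replicate 3, ZT10 replicate 1, ZT22 replicate 3 and among the libraries with 1 to 3 cells.

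Of the 10 cytokines and chemokines with enough UMIs, 6 were at least 2-fold higher in ZT14 replicate 1 and 1, Ccl6, lower. Over the 1478 genes the shares were 8.46% higher and 9.61% lower. In other immune cells the 11 listed genes also summed to more in that library, 105 against 57.8 elsewhere. Cxcl2 was at 194 against 71.1 in neutrophils and 27.6 against 15.9 in other immune cells. Of 7 NF-kB feedback genes 3 were higher and none lower, beside the same shares. The sum of the 7 was 119 against 65.4 in neutrophils and 43.6 against 40.7 in other immune cells. Outside the listed genes, and chosen after their values were seen, Lrg1 was at 14.96 in ZT14 replicate 1 and 1.45 elsewhere, Wfdc17 at 54.5 and 9.54, and Inhba, an activin subunit, at 3.33 and 0.156. In other immune cells Lrg1 was at 0.332 and 0.128, Wfdc17 at 17.98 and 20.1, and Inhba at 1.02 and 0.0993. Lrg1, a glycoprotein stored in neutrophil granules, was in 84.0% of neutrophils of ZT14 replicate 1 and 25.5% of the others.

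Ribosomal protein genes, a group also chosen after values were seen, were lower in ZT14 replicate 1. Of 67 with enough UMIs, 45 were at least 2-fold lower and none higher, beside 9.61% and 8.46% of the 1478 genes. Their median log2 difference was -1.28, beside -0.17 over all genes, whereas the same genes differed by -0.27 in other immune cells. Their share of neutrophil UMIs was 2.70%, 2.97%, 1.91%, 3.58%, 5.13% and 3.92% in the 6 libraries, lowest in ZT14 replicate 1, and 14.6% in all other immune cells. Without the 2 neutrophils of other libraries that had over 2% mitochondrial UMIs, 34 of the 67 were at least 2-fold lower. All 8 mitochondrial genes with enough UMIs were at least 2-fold lower than in the neutrophils elsewhere, but none was without those 2 cells, of ZT6 replicate 3 (7.42%) and ZT22 replicate 1 (4.18%), which held 806 of the 1337 mitochondrial UMIs there. The mitochondrial share was 0.234% in ZT14 replicate 1 and between 0.250% and 0.394% in the other libraries with at least 5 neutrophils. In other immune cells the share was 3.22% in ZT14 replicate 1 and 3.16% elsewhere. Median depth was 4524.5 UMIs per neutrophil in ZT14 replicate 1 and 3582 elsewhere, and its part in these differences was not tested.

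Of 18 core clock genes, 9 had no UMI in neutrophils, whereas Per1 was found in 42.1% of these cells, Nfil3 in 44.1% and Bhlhe40 in 32.4%. The summed level of the 18 was 6.49 in neutrophils and 5.27 in other immune cells. Because clock genes vary with time and most neutrophils came from ZT14, each gene's UMIs were set beside those that the same number of UMIs from other immune cells of the same library would hold. The 95% Poisson interval of the ratio covers counting error only, over pooled cells of which 94 of 145 came from 1 mouse. Of the 14 clock genes that passed the limit of 10% of cells, it lay below 1 for 10 and above 1 for 4. Over the 7813 genes set against other immune cells in the same way, the shares were 63.5% and 16.8%. The 10 were in at most 2.07% of neutrophils and so passed through other immune cells alone. That limit largely set the count, which is no result about clock genes as a group. Nr1d2, a repressor of the clock, had 0 UMIs where 24.6 would have been held, a ratio of at most 0.150, and Arntl, the clock activator BMAL1, 0 against 10.4 (at most 0.356). Dbp, an output gene of the clock, had 2 against 23.0 (0.0105 to 0.314). Nr1d1, Per3, Rora, Ciart and Bhlhe41 also had none and intervals below 1. A count of 0 of 145 neutrophils allows a share of cells with a UMI of up to 2.07%, taken as 3 counts of the total.

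Per1, Nfil3, Bhlhe40 and Cry1 stood on the other side. Per1, which is also induced acutely by stress signals, had 117 UMIs against 39.3 (ratio 2.98, 2.46 to 3.57), with 70 against 24.7 in ZT14 replicate 1 and 47 against 14.6 elsewhere. Nfil3 had 120 against 51.0 (ratio 2.35, 1.95 to 2.81), Bhlhe40 137 against 43.9 (3.12, 2.62 to 3.69) and Cry1 26 against 10.2 (2.55, 1.67 to 3.73). Thinned to 1500 UMIs, Per1 was in 24.8% of neutrophils, 9.72% of other immune cells and 4.29% of fibroblasts. These ratios belong to the contrast that chose the cells. Of the 14 clock genes that passed the limit of 10% of cells, 10 were at least 4-fold lower, beside 41.5% of all genes. The number was 8 without ZT14 replicate 1, and the median log2 ratio of the 14 was -3.20. The 10 passed through other immune cells alone, so the limit largely set these values. They are no result about clock genes as a group.

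Fibroblasts were examined for attractants of neutrophils, since they took no part in choosing the members. Fibroblasts here are the 12244 barcodes with a UMI of Pdgfra and none of Ptprc. Cxcl5, a ligand of Cxcr2 on chromosome 5 (GRCm38, 90759360 to 90761624, plus strand), was at 1.53 UMIs per 10000 in ZT14 replicate 1 and at most 0.00119 in any of the other 17 libraries. That level rested on few cells: 13 of 262 fibroblasts (4.96%) held the 1328 UMIs, 10 of them 99.8%, and 1 cell 696. In the other libraries 4 of 11982 fibroblasts held 7 UMIs. Neutrophils had no UMI of Cxcl5, Cxcl12 or Il6, but those of ZT14 replicate 1 had 105 of Cxcl1 and 45 of Csf3, the gene of granulocyte colony-stimulating factor, against 2 and 0 elsewhere.

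The other attractants overlapped with the rest of the libraries or nearly so. Cxcl2 in fibroblasts was at 1.85 in ZT14 replicate 1, the highest of 18, with ZT10 replicate 1 at 1.74 and a median of 0.359 over the other 17. Cxcl1 was at 6.10, behind ZT10 replicate 1 at 7.90 and ZT22 replicate 1 at 7.18, which had 7 and 2 neutrophils. Cxcl12 was at 1.16 within a range of 0.672 to 2.12, Il6 at 0.382 within 0.243 to 1.43, and Csf3 had no UMI in fibroblasts of ZT14 replicate 1.

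Across the 18 libraries, no relation of 8 measures to the neutrophil share passed adjustment over the family. For Cxcl5, Pearson's r was 0.973 (permutation p = 0.0438, Benjamini-Hochberg adjusted 0.175) and Spearman's rho 0.0383 (p = 0.882, adjusted 0.883), and without the 2 libraries farthest from the median level r was -0.250. For Cxcl2, r was 0.562 (permutation p = 0.0225, adjusted 0.175), rho 0.332 (p = 0.180, adjusted 0.719) and r without the 2 libraries -0.0410. ZT14 replicate 1 was among the 2 libraries left out in both cases, with ZT2 replicate 3 for Cxcl5 and ZT10 replicate 1 for Cxcl2. The Cxcl2 relation did not hold without them. For Cxcl5 the libraries kept had at most 2 UMIs each in fibroblasts, so the r without the 2 decides nothing. Over all 18 libraries, ZT14 replicate 1 was far from the rest in both Cxcl5 and the neutrophil share. The permutation p of r for Cxcl5 is then set mainly by how often these extremes meet and could hardly be smaller. That it did not pass therefore decides nothing either. For Cxcl1, r was 0.332 (permutation p = 0.146, adjusted 0.390), rho 0.0465 (p = 0.857, adjusted 0.883) and r without the 2 farthest libraries 0.632 (p = 0.0538, adjusted 0.431), a fit that keeps ZT14 replicate 1. Cxcl12, Csf3, Il6, the median UMIs per barcode and the number of barcodes had r between -0.283 and 0.0199, rho between -0.342 and 0.224, and adjusted permutation p from 0.458 to 0.907 for r and from 0.719 to 0.883 for rho.

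**Figure D5:**
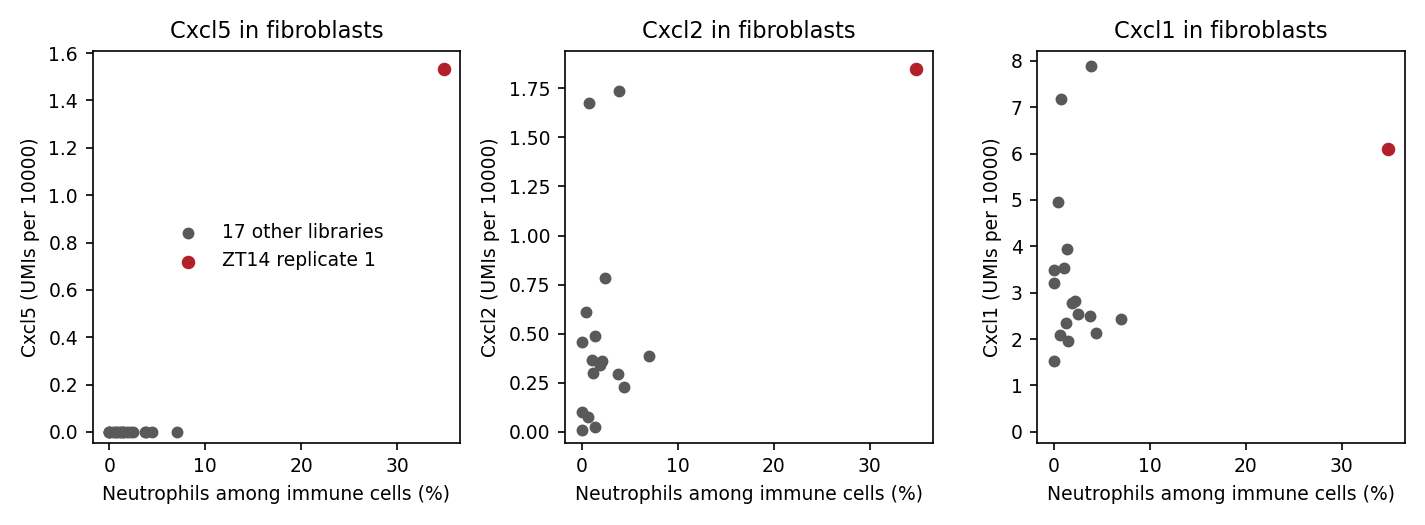
Level of Cxcl5, Cxcl2 and Cxcl1 in fibroblasts (y axes, UMIs per 10000) against neutrophils as a percentage of immune cells (x axes) in the 18 libraries. Each point is a library and red marks ZT14 replicate 1. Cxcl5 is at 1.53 in ZT14 replicate 1 and near 0 in the other 17, whereas Cxcl1 is higher in ZT10 replicate 1 at 7.90 and ZT22 replicate 1 at 7.18 than in ZT14 replicate 1.

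The share of monocytes among other immune cells was 20.5% in ZT14 replicate 1, against a median of 3.70% and a highest of 21.7%, in ZT2 replicate 3, over the other 17 libraries. ZT2 replicate 3 had 6 neutrophils among 430 immune cells. Compared with neutrophils, the 217 monocytes had S100a8 at 0.194 and S100a9 at 0.0533, Cxcr2 at 0.00381, Csf3r at 0.568 and Il1r2 at 0.670, and they carried more Lyz2 (96.1), S100a4 (20.2 against 0.142) and Chil3 (2.38 against 0.142). Barcodes that met the neutrophil rule were left out of the monocytes. The values of S100a8, S100a9 and Csf3r therefore follow in part from that choice.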

How the data were processed

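Single-cell RNA-seq libraries of 18 mice were analysed. The authors aligned reads to mm10 with Cell Ranger 3.1.0 and deposited raw counts (UMIs per gene and barcode, 10x 3′ chemistry) without the cell filter of the study. The 3′ counts are not scaled by transcript length. The members, markers and gene lists were chosen with earlier results of these data known. Genes are named as rule genes, list members, the 20 highest and 10 lowest ratios and the 10 most abundant genes. Positions are from GENCODE and promoters from RefSeq, both on GRCm38, which is mm10.

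Neutrophil and other immune UMIs were summed over all libraries and compared per 10000 with a pseudocount of 0.01. The share was tested for a 24 h rhythm with cosine and sine terms and 100000 permutations of the libraries, and correlations with as many (two-sided). Libraries are separate mice. Per the labels, same-numbered libraries share a 24 h cycle of collection, with replicate 1 at 2 to 22 h, replicate 2 at 26 to 46 h and replicate 3 at 50 to 70 h. Correlations of their deviations from the time means, in other immune cells, had medians of 0.137, -0.0358 and 0.0182 over the 15 pairs of each number. Intervals are exact binomial or exact Poisson (95%). For thinning, 89 other immune cells and 73 fibroblasts under 1500 UMIs were left out. A planned test of gene rhythms in neutrophils required 9 libraries with at least 10 neutrophils, and 1 had them, so none was made. Fold and permutation steps were tested on simulated data. Python 3.11.15, numpy 2.4.6, scipy 1.17.1, pandas 2.3.3 and matplotlib 3.10.9 were used. Alternatives were other limits on genes, S100a8 and S100a9, C1qa, Csf3r and Retnlg and mitochondrial UMIs, other denominators, scales and weights, and leaving out each library. Leaving out 2 cells of high mitochondrial share was added after seeing the data. Some members of the adhesion, NADPH oxidase and ageing lists are not reported here, nor are the counts of those lists.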

Additional observations from a re-analysis of the deposited data

How the results depend on the processing

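The number of neutrophils was 78 where both Csf3r and Retnlg were required and between 134 and 149 under the 7 other limits tried. Leaving out 1 library gave 51 to 145, with the 51 without ZT14 replicate 1. The mean share among immune cells was between 3.57% and 4.02% under 4 alternatives and between 1.91% and 3.96% when 1 library was left out, the lowest again without ZT14 replicate 1. The 24 h cosine did not pass under any of 6 alternatives (p from 0.510 to 0.868) or without any 1 library (p from 0.228 to 0.932, variance explained 0.0114 to 0.154 as a fraction). With the replicate number as a block, the fraction explained was 0.118 (permutation p = 0.611), which changed no call. Without a minimum of detecting cells, 848 genes were at least 4-fold higher in place of 554, because more genes were compared, and 5 other settings gave 551 to 575. Leaving out 1 library gave 543 to 559. The share under 850 genes was 7.59% to 8.72% under 3 alternatives and 6.99% to 7.97% without 1 library. The sign of r turned without the 2 libraries farthest from the median level for Cxcl5 (-0.250) and Cxcl2 (-0.0410). For Cxcl5 almost no UMI was left in fibroblasts, so its turn decides nothing. The planned gene rhythm test and its 8 alternatives, DESeq2 among them, were not run, because 1 library reached 10 neutrophils where 9 were required. With a median of 2 neutrophils in each library other than ZT14 replicate 1, counting error limits every value by library.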
